A study of Mus musculus with 8 samples.

Results

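The genes examined lie on mouse chromosome 11 between Sco1 and Wrap53, on the Sco1 side of Trp53, inside the segment called 11B3. They were taken by symbol from a list of 33 names; other genes of the same stretch, such as Pik3r5, Rpl26 and Chd3, are not on the list. Of the 33, 28 had a row among the 18860 genes of the deposited tables and 23 passed a filter on low values (4 or more libraries at a value of 10 or higher). Krba2, Odf4, Rangrf, Alox12b and Gucy2e were not analysed here.

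Total RNA was sequenced from leukaemic bone marrow cells taken from C57BL/6 mice when moribund. The 11B3-deleted group (genotype 11B3fl/p53fl;shNf1;shMll3;Vav1-Cre, n = 4 libraries) carries the floxed 11B3 segment on 1 chromosome and a floxed Trp53 allele on the other, so that after recombination 1 copy of each interval gene remains. The p53-loss-only group (p53fl/fl;shNf1;shMll3;Vav1-Cre, n = 4 libraries) has 2 floxed Trp53 alleles and keeps 2 copies of the rest of the interval. Both groups share short hairpin RNAs against Nf1 and Mll3 and the Vav1-Cre recombinase, whose Vav1 promoter is active in blood cells. The labels give 4 lines per cohort and no ages, and do not say that each line is a separate animal, so the errors below measure the spread between these libraries. Depth was 30591456 to 35719495 recovered reads in the 11B3-deleted libraries and 30502718 to 33365364 in the p53-loss-only libraries. Values are the deposited ones, which are reads scaled by 1 factor per library plus 1. Differences are on the log2 scale, 11B3-deleted minus p53-loss-only.

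Deletion of 1 of 2 copies of a gene commonly lowers its RNA towards 50%, a gene dosage effect, unless the remaining copy is transcribed more or the RNA is made more stable. The genes described here have no common pathway: they include membrane trafficking proteins, centrosome and cilium components, mitochondrial proteins, enzymes and proteins of telomere maintenance, alongside genes known mainly from nerve, muscle, retina, skin or testis.

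The cell identity given by the labels was checked first. All 14 myeloid markers examined had values in every library and passed the filter, among them Mpo, a granule peroxidase, which was at 75329 or more in each. Their summed level was 209721 to 728301 in the 11B3-deleted libraries and 251706 to 501923 in the p53-loss-only libraries. Markers of other marrow cells were present at unequal levels: the summed B cell markers (8 of 8 measured) stood at 48443 in 11B3-deleted replicate 3, at 393 to 1412 in the other 11B3-deleted libraries and at 404 to 2076 in the p53-loss-only libraries. The 9 erythroid markers summed to 8159 to 177083 with the deletion and to 907 to 37740 with p53 loss alone, highest in 11B3-deleted replicate 1. In bulk RNA, fewer cells of a type and less RNA per cell cannot be told apart. Trp53 itself, next to Wrap53, was at 392.5, 387.3, 266.6 and 189.2 in 11B3-deleted cells, against 425.3, 577.1, 367.2 and 300.2 in p53-loss-only cells (log2 difference -0.45, SE 0.32), which does not check the labels, since exons outside the floxed part can still be read.

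The 11B3-deleted libraries had a lower mean of every one of the 23 tested genes, with a median log2 difference of -0.93, or 52.5% of the p53-loss-only level. Over all 14679 genes tested the median was 0.01, and 48.4% had a lower mean. For 15 of the 23 genes the 95% interval of the difference lay below 0 (limma, a linear model with a spread shared across genes, not adjusted for the number of genes), against 2.38% of all genes tested, and for none above it (1.18% of all genes). Every 11B3-deleted library was below every p53-loss-only library for 11 of the 23 genes, where 1.23% of all genes tested were lower without overlap. After Benjamini-Hochberg adjustment over all genes none of the 23 passed with limma (smallest adjusted p = 0.258; background 0.0136% lower) and none with edgeR (background 0.00681% lower; 15 of the 23 lower at an unadjusted p under 0.05, against 2.45% of all genes), whereas DESeq2 called 6, all lower, where it called 0.334% of all genes lower. The 6 that fell by DESeq2 are Stx8, Ndel1, 1500010J02Rik, 2310047M10Rik, Vamp2 and Trappc1. For Ntn1, Hes7 and Efnb3 the filter was met by the p53-loss-only libraries alone. Ntn1 reached 10 in 1 of 4 11B3-deleted and 4 of 4 p53-loss-only libraries. Hes7 did so in 2 of 4 11B3-deleted and 4 of 4 p53-loss-only libraries, and Efnb3 in 3 of 4 and 4 of 4. Their lower means are partly set by the filter. Tmem88 reached it in 2 of 4 11B3-deleted and 3 of 4 p53-loss-only libraries. Among the 17 genes with a mean of at least 100 over all 8 libraries, the median was -1.01, or 49.8%.

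No tested gene departed from 50% by its own interval in the limma fit. All 23 of the 95% intervals held -1, the log2 of 1 copy in place of 2, while 67.4% of all genes tested had an interval that left it out. Of the intervals, 15 held -1 and lay below 0 (2.13% of all genes tested did), and 8 held both -1 and 0. The 8 are Gas7, Mfsd6l, Arhgef15, Pfas, Hes7, Cyb5d1, Tmem88 and Efnb3. Precision differed widely. The standard error was 0.16 for Ndel1, whose interval corresponds to 36.8% to 61.3% of the p53-loss-only level, and 0.86 for Gas7, whose interval runs from 20.5% to 300.4%. Without p53-loss-only replicate 4, Kcnab3 (log2 difference -2.46) and Dnahc2 (-2.19) had intervals below -1, and with array weights so did Mfsd6l (-2.43), 1500010J02Rik (-1.52), Kcnab3 (-2.31) and Dnahc2 (-2.35).

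**Figure D1:**
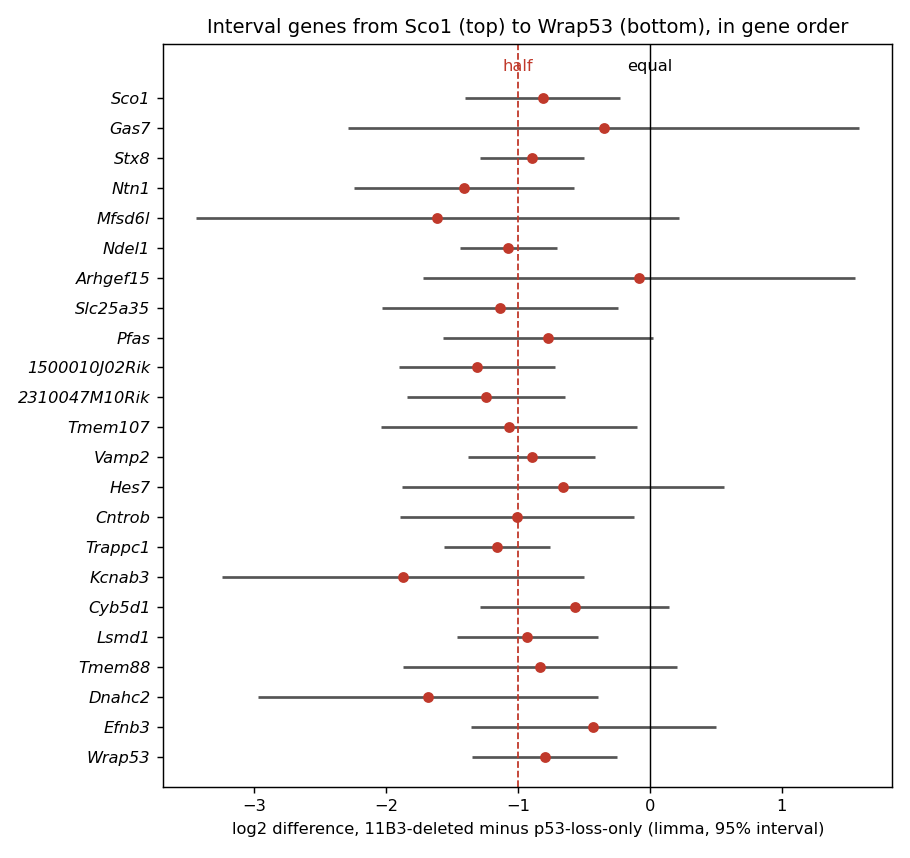
Log2 difference with its 95% interval (horizontal axis, limma, n = 4 libraries per group) for the 23 tested genes in gene order from Sco1 to Wrap53. The solid line marks an equal level and the dashed line 50% (log2 of -1): every interval crosses the dashed line, and 15 stay below 0.

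By library, the median over the 23 genes relative to the p53-loss-only mean was 49.5%, 46.5%, 55.9% and 48% from 11B3-deleted replicate 1 to 4, against 115%, 107%, 99.9% and 85.6% from p53-loss-only replicate 1 to 4. Averaged by group, these medians were -1 ± 0.12 on the log2 scale with the deletion, against 0.02 ± 0.18 with p53 loss alone (SD, n = 4 each). In replicate 3 of the 11B3-deleted group, 11 of the 23 genes had their highest value of the group. That is also the library with the high B cell markers, whose part in the result was not tested; without it the median log2 difference was -1.06. In the p53-loss-only group, replicate 4 was lowest for 11 of the 23 genes and highest for 4.

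**Figure D2:**
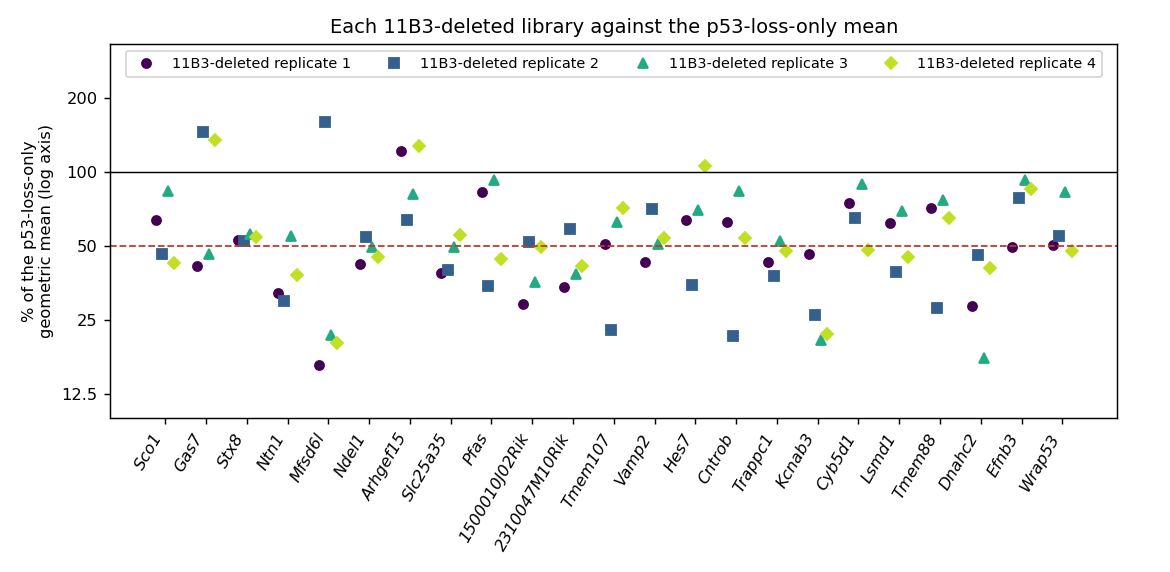
Level of each tested gene in each 11B3-deleted library as a percentage of the geometric mean of the 4 p53-loss-only libraries (vertical axis, log scale; marker shape gives the replicate). Stx8 lies between 52.3% and 55.9% in all 4 libraries, whereas Mfsd6l runs from 16.4% to 159%.

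Where the RefSeq table held a window around the gene start (250 bases before to 50 after, build GRCm38.p6), 13 of the 28 genes were matched, with 14 windows. Shown are the windows of the 4 genes that DESeq2 called and that have one, and that of Sco1, the first gene of the interval. They are written 5′ to 3′ in the direction of the gene, with capitals marking matches on either strand to 5 motifs: the box CCAAT, the Sp1 core GGGCGG, the TATA box written TATAAA, the E-box CACGTG and the cyclic AMP element TGACGTCA:

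Sco1, chr11:67052420-67052719, plus strand: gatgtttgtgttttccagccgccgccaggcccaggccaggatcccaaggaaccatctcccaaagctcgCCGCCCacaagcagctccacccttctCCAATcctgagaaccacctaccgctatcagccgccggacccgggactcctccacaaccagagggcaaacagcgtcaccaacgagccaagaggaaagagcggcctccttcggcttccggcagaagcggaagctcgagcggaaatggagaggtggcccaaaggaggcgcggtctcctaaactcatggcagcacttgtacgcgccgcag

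Stx8, chr11:67966208-67966507, plus strand: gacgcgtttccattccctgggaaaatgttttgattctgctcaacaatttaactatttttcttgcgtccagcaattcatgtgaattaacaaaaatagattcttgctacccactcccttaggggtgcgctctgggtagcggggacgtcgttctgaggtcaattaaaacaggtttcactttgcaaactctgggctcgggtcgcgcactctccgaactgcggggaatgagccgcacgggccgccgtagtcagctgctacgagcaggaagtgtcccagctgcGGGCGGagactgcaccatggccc

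Ndel1, chr11:68853086-68853385, minus strand: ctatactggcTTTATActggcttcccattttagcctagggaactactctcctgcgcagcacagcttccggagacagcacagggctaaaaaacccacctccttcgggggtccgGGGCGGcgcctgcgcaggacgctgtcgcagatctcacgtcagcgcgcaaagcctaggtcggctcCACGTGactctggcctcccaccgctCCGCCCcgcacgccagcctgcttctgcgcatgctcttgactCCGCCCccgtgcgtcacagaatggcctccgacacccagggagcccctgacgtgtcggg

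1500010J02Rik (Ctc1), chr11:69015661-69015960, plus strand: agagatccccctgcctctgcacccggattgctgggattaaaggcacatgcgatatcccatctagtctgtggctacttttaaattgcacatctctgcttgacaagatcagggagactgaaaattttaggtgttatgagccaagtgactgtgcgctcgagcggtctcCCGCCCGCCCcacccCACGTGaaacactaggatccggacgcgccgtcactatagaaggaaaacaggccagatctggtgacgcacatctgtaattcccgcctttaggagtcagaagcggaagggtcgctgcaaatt

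2310047M10Rik (Borcs6), chr11:69059525-69059824, plus strand: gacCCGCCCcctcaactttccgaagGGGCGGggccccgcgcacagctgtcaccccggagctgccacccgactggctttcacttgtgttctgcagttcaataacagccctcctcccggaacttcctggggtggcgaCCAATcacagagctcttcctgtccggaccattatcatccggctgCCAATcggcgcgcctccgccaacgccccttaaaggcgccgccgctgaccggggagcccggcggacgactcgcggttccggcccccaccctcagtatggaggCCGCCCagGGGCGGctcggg

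The letters GGGCGG or their complement were found in 9 of the 14 windows, against 35.7% of all 32851 windows in the table. CCAAT was found in 4 of 14 (37.4% of all windows), CACGTG in 3 (7.15%), TATAAA in 2 (13.6%) and TGACGTCA in 0 (1.79%). In the 1500010J02Rik window 2 matches to CCGCCC overlap each other. The median GC content was 60.7% in the 14 windows and 52.7% in all windows, and the median observed-to-expected ratio of CG dinucleotides was 0.69 in the 14 and 0.38 in all. These are descriptions of the letters and say nothing of which factor binds.

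Of the membrane trafficking genes, Stx8 encodes syntaxin 8, a SNARE of endosome fusion. With values given from replicate 1 to 4, here and for the genes that follow, it was at 440.3, 436.8, 467.2 and 453.6 in 11B3-deleted cells, against 837, 866.1, 939.6 and 715.5 in p53-loss-only cells. No library of one group reached the other, and the 11B3-deleted libraries lay within a narrow range (log2 difference -0.89, SE 0.18, limma adjusted p = 0.512, DESeq2 adjusted p = 2.18e-06). Stx8 also overlaps an antisense gene, C78197. Vamp2, a vesicle SNARE known from synaptic release and also used in exocytosis elsewhere, was at 944.1, 1540.9, 1111.8 and 1184.1 in 11B3-deleted cells, against 2681, 2368.8, 2185.3 and 1647.3 in p53-loss-only cells. The highest 11B3-deleted and the lowest p53-loss-only library came close without overlapping (-0.89, SE 0.21, DESeq2 adjusted p = 0.0476). Trappc1, a subunit of the TRAPP complex that tethers vesicles at the Golgi, was at 642.4, 560.6, 778.4 and 708.4 in 11B3-deleted cells, against 1577.9, 1270.7, 1664.4 and 1475.9 in p53-loss-only cells. Every 11B3-deleted library was below every p53-loss-only library (-1.16, SE 0.18, limma adjusted p = 0.258, DESeq2 adjusted p = 3.05e-07), at 44.8% of the p53-loss-only level. The lysosome positioning complex BORC includes the product of 2310047M10Rik (current symbol Borcs6), which was at 376.9, 648.8, 426.5 and 460.7 in 11B3-deleted cells, against 1386.6, 923.9, 1437.4 and 817.8 in p53-loss-only cells. Its groups did not overlap (-1.24, SE 0.27, DESeq2 adjusted p = 0.00692). An antisense gene, 9330160F10Rik, overlaps it and was lower too (-1.32, SE 0.34); the sources used here do not give whether reads were assigned by strand, so reads of the pair cannot be told apart.

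Of the cytoskeleton and centrosome genes, Ndel1, which binds Lis1 and regulates the dynein motor, had the smallest limma p of the 23, close to that of Trappc1, which had the smaller p with DESeq2 and with the replicate block. It was at 876.7, 1122.3, 1021.6 and 931.1 in 11B3-deleted cells, against 2263.5, 2080.8, 2251.1 and 1732.5 in p53-loss-only cells, without overlap (-1.07, SE 0.16, limma adjusted p = 0.258, DESeq2 adjusted p = 3.05e-07). Cntrob encodes centrobin, a protein of the daughter centriole, and starts head to head with Trappc1. It was at 520.4, 179.6, 696 and 446.5 in 11B3-deleted cells, against 955.5, 901.9, 822.3 and 668.7 in p53-loss-only cells. Here 11B3-deleted replicate 2 was far below the rest and replicate 3 reached into the p53-loss-only range (-1.01, SE 0.39). Tmem107, a protein of the ciliary transition zone, averaged 102.3 ± 41.4 in 11B3-deleted cells and 205.5 ± 70.9 in p53-loss-only cells (SD, n = 4 each), without overlap. Dnahc2 (current symbol Dnah2), an axonemal dynein heavy chain, averaged 100.9 ± 38.7 in 11B3-deleted cells and 366.3 ± 224 in p53-loss-only cells (SD, n = 4 each; log2 difference -1.68, SE 0.57), the p53-loss-only libraries spanning 104.3 to 639. Gas7, an F-BAR protein first known from neurite outgrowth, was the least settled: it was at 1973.1, 6885, 2205.1 and 6401.9 in 11B3-deleted cells, against 10288.9, 4655, 13480.5 and 785.8 in p53-loss-only cells. The p53-loss-only group held both the highest and the lowest of the 8 values, with all 11B3-deleted libraries between them (-0.35, SE 0.86), and the sign turned without p53-loss-only replicate 3 (0.15) or replicate 1 (0.02). Among the myeloid markers, Fcgr3, an Fc receptor, was at 5142.2, 12113.9, 1116.6 and 12465.6 in 11B3-deleted cells, against 14699.3, 5293.6, 19296.4 and 980.7 in p53-loss-only cells, high and low in the same libraries as Gas7. Csf1r, Ly6c2 and Ctsg were, like Gas7, highest in p53-loss-only replicate 3 (31266, 65402.9 and 49496.8). Unlike Gas7, none of them had its lowest value of all 8 libraries in p53-loss-only replicate 4. Within the p53-loss-only group, Csf1r was, like Gas7, lowest in replicate 4 (10359.3), whereas Ly6c2 and Ctsg were lowest in replicate 2 (18885.1 and 17951.1). Some other markers of the list did not follow Gas7. Kit, a receptor of immature cells, was highest in p53-loss-only replicate 4 (5565.1), where Gas7 was lowest, and Cebpe, a factor of granulocyte maturation, was highest in 11B3-deleted replicate 3 (2591.9). Sfpi1, which encodes the factor PU.1, lay between 6669.7 and 8199.6 in all 8 libraries. The part of cell makeup in the Gas7 values was not tested.

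Genes of nucleic acid and protein upkeep came next. 1500010J02Rik (current symbol Ctc1) encodes the large subunit of the CST complex, which helps copy telomere ends; it was at 1235.1, 2210.3, 1529.5 and 2109.8 in 11B3-deleted cells, against 5390.1, 3859.6, 5342.1 and 2971 in p53-loss-only cells. The groups did not overlap, and its level was 40.4% of that in the p53-loss-only group (95% interval 26.8% to 60.9%; DESeq2 adjusted p = 0.00523). Wrap53, which guides telomerase to Cajal bodies and starts head to head with Trp53, was at 309.5, 336.8, 506 and 292.1 in 11B3-deleted cells, against 519.5, 727.6, 584.3 and 637.8 in p53-loss-only cells. In Wrap53 the highest 11B3-deleted library, replicate 3, came just under the lowest p53-loss-only library (-0.8, SE 0.24), while Trp53 overlapped. Lsmd1 (current symbol Naa38), the small subunit of the N-terminal acetyltransferase NatC, was at 575.1, 364.7, 643.6 and 420.8 in 11B3-deleted cells, against 940.9, 915.7, 779.5 and 1113.8 in p53-loss-only cells. Its groups did not overlap (-0.93, SE 0.24, DESeq2 adjusted p = 0.0644). Lsmd1 overlaps Cyb5d1 and Tmem88 on the opposite strand, so reads in the overlaps could have been counted for either. Cyb5d1, a cytochrome b5 domain gene, averaged 98.6 ± 24.6 in 11B3-deleted cells and 145.1 ± 30.2 in p53-loss-only cells, and Tmem88, a Wnt pathway inhibitor that binds Dishevelled, 9.13 ± 3.35 in 11B3-deleted cells and 15.7 ± 4.41 in p53-loss-only cells (SD, n = 4 each), both overlapping.

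Among the metabolic genes, Pfas, an enzyme of de novo purine synthesis, was at 2642.9, 1093.3, 2939.8 and 1407.7 in 11B3-deleted cells, against 2569.3, 3788.1, 2402.4 and 4362.8 in p53-loss-only cells. Each group was split, with 11B3-deleted replicates 1 and 3 at the level of p53-loss-only replicates 1 and 3 (log2 difference -0.77, SE 0.35, 95% interval -1.57 to 0.02). Sco1, a mitochondrial copper chaperone needed for cytochrome c oxidase, was at 430.6, 315.2, 567.1 and 288.6 in 11B3-deleted cells, against 636, 638.6, 624.9 and 833.8 in p53-loss-only cells. No Sco1 value overlapped between the groups (-0.81, SE 0.26), and 3 of the 4 p53-loss-only libraries were nearly equal. Slc25a35, a mitochondrial carrier, averaged 129.3 ± 22.6 in 11B3-deleted cells and 309.6 ± 146 in p53-loss-only cells (SD, n = 4 each; -1.14, SE 0.4), overlapping through p53-loss-only replicate 4 at 146.9; Rangrf lies over part of it on the opposite strand.

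**Figure D3:**
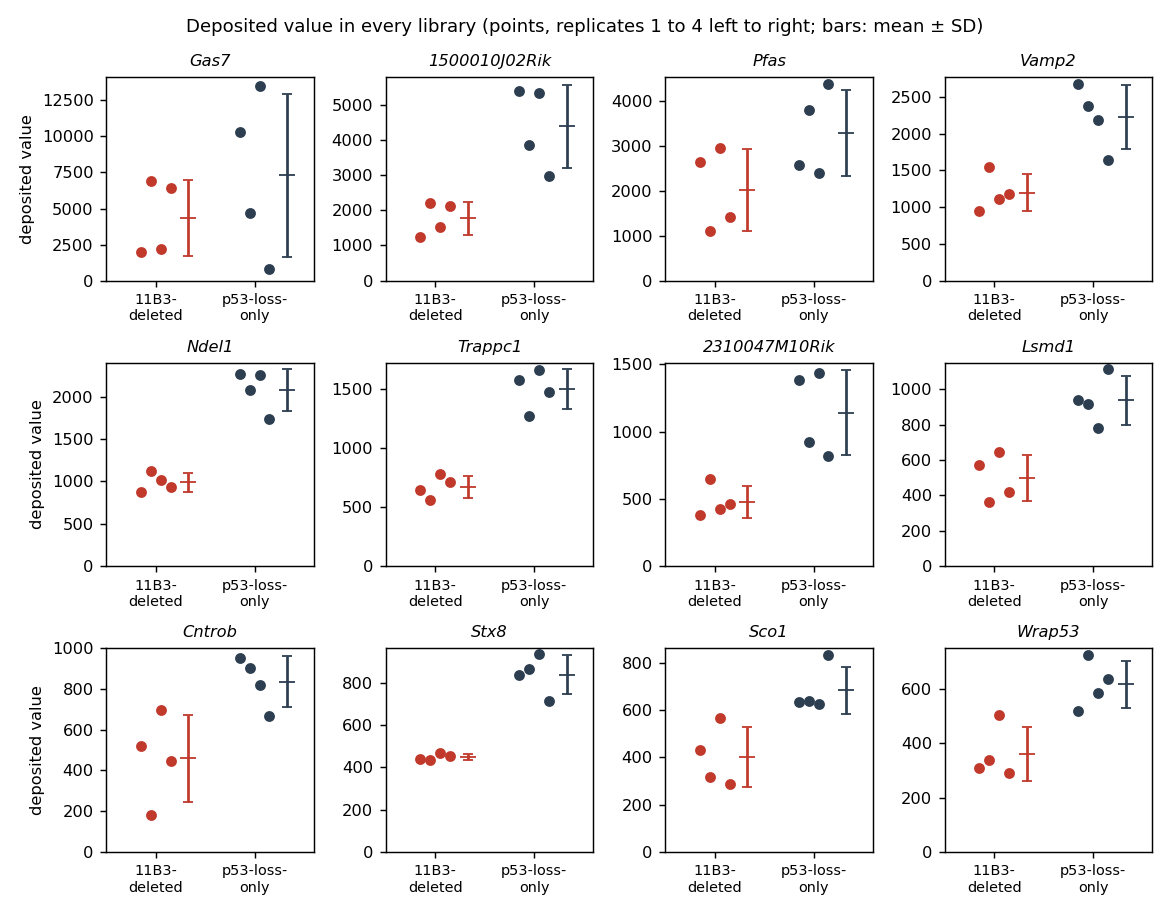
Deposited value (vertical axis, reads scaled by 1 factor per library plus 1, from 0) in every library for the 12 genes with the highest means. The 11B3-deleted group is on the left and the p53-loss-only group on the right, and bars give mean ± SD (n = 4 each). The groups do not overlap for 9 of the 12; Gas7, Pfas and Cntrob overlap.

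Of the remaining tested genes, Kcnab3, a potassium channel beta subunit, was at 30.3, 17.1, 13.6 and 14.3 in 11B3-deleted cells, against 83.5, 96.4, 117.2 and 19.1 in p53-loss-only cells, the lowest level relative to the p53-loss-only group of the 23 (27.4%; 95% interval 10.6% to 70.9%). The p53-loss-only replicate 4 value lay within the 11B3-deleted range. Mfsd6l, named for its likeness to major facilitator transporters, averaged 174.6 ± 224 in 11B3-deleted cells and 382.7 ± 195 in p53-loss-only cells (SD, n = 4 each), with 11B3-deleted replicate 2 at 511.1 and the other 3 between 52.7 and 69.8. Ntn1, the axon guidance ligand netrin-1, gave 30 reads summed over 11B3-deleted libraries, against 82 over p53-loss-only libraries (log2 difference -1.41, SE 0.37). Arhgef15 averaged 36.4 ± 11.4 in 11B3-deleted cells and 50.1 ± 30.7 in p53-loss-only cells, Efnb3, an ephrin ligand, 13.6 ± 3.37 in 11B3-deleted cells and 18.7 ± 6.69 in p53-loss-only cells, and Hes7, a repressor of the somite clock, 10.5 ± 4.43 in 11B3-deleted cells and 17.7 ± 12.3 in p53-loss-only cells (SD, n = 4 each), all overlapping. For Arhgef15 the 95% interval ran from -1.72 to 1.55.

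Under the filter were 5 genes with at most 29 reads in any group of 4 libraries. Myh3, embryonic myosin heavy chain, gave 9 reads in 11B3-deleted cells against 21 in p53-loss-only cells; Aloxe3, a lipoxygenase of skin, gave 13 in 11B3-deleted cells and 29 in p53-loss-only cells. Glp2r, the receptor of glucagon-like peptide 2, gave 14 in 11B3-deleted cells and 22 in p53-loss-only cells. Rcvrn, the retinal calcium sensor recoverin, gave 10 in 11B3-deleted cells and 12 in p53-loss-only cells. For Ccdc42, a gene needed for sperm tails in mice, there were 13 reads in 11B3-deleted cells and 11 in p53-loss-only cells. Of the 13 reads, 11 were in 11B3-deleted replicate 2. These 5 genes were left out of the main fit, so a difference between copy numbers was not tested there, and no fold is given. Glp2r overlaps Gas7 and Rcvrn on the opposite strand. Beside Myh3, the skeletal muscle markers (6 of 8 measured) summed to 312 to 451 in the 11B3-deleted libraries and to 468 to 954 in the p53-loss-only libraries, with Actn2 at or under 3 reads in all 8. The markers did not move together. Ckm was at 174.8 to 309.8 in 11B3-deleted cells and 326.7 to 504 in p53-loss-only cells, and Ttn was at 556.9 in p53-loss-only replicate 3 and at 20.4 to 63.8 in the other 7 libraries. Acta1 lay at 6.8 to 20.4 in 11B3-deleted cells and 3.1 to 10.9 in p53-loss-only cells, and Mylpf at 17.1 to 57.6 in 11B3-deleted cells and 15.3 to 54.2 in p53-loss-only cells. Their part in the Myh3 reads was not tested.

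Genes elsewhere in the genome whose products work with those of the interval were read next, and none passed the test as lower. Over 9 such lists, 72 genes were tested, 25 with a lower and 47 with a higher mean in the 11B3-deleted group, and the median log2 difference was 0.06. Among all genes tested, 48.4% had a lower mean. None passed after adjustment with limma (smallest adjusted p = 0.996), edgeR or DESeq2. Of the 72, 1 had an unadjusted limma p under 0.05, where 1.18% of all genes tested had an interval above 0 and 2.38% below 0. It was Naf1, a telomerase assembly factor, at 1190 in 11B3-deleted cells and 804 in p53-loss-only cells (log2 difference 0.54, SE 0.21). The other TRAPP subunits had 5 lower and 8 higher means of 13, between -0.34 for Trappc6a and 0.36 for Ttc15 (current symbol Trappc12). All 5 further enzymes of purine synthesis had a higher mean, Ppat at 0.3 (SE 0.41) and Gart at 0.26 (SE 0.35). Without 11B3-deleted replicate 1, Ppat was at -0.0076 and Gart at 0.045, and without 11B3-deleted replicate 2 at 0.65 and 0.54. Of 16 dynein, dynactin and Lis1 genes 6 had lower and 10 higher means, the extremes being -0.19 and 0.26. SNARE genes were split with 8 lower and 5 higher of 13, with Stx11 at -0.53 (SE 0.32) and Snap23 at 0.64 (SE 0.47). Snap23 was at 6204.5 in 11B3-deleted replicate 1 and at 1182.6 to 1698.2 in the other 3, against 1140.3 to 1500.4 in p53-loss-only cells, and without that library its log2 difference was 0.10. All 8 telomerase genes had a higher mean, with Nop10 at 0.47 (SE 0.56). Nop10 was highest in 11B3-deleted replicate 1 (2752.2). Without that library Nop10 was at 0.08 and Naf1 at 0.38, and without 11B3-deleted replicate 2 they were at 0.96 and 0.62. For Cox17, a copper delivery gene, the same 2 fits gave 0.36 and 0.86. The CST partners Obfc1 (current symbol Stn1) and 2310004N24Rik (Ten1) were at -0.16 (SE 0.32) and 0.05 (SE 0.2), and the NatC subunits Naa30 and Naa35 at 0.15 (SE 0.17) and 0.18 (SE 0.2). Copper delivery genes had 1 lower and 5 higher means, Cox17 at 0.6 (SE 0.28), and the BORC subunits 4 lower and 3 higher, from -0.05 to 0.19. None of these differences passed the test, and the intervals do not show that the levels were equal.

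**Figure D4:**
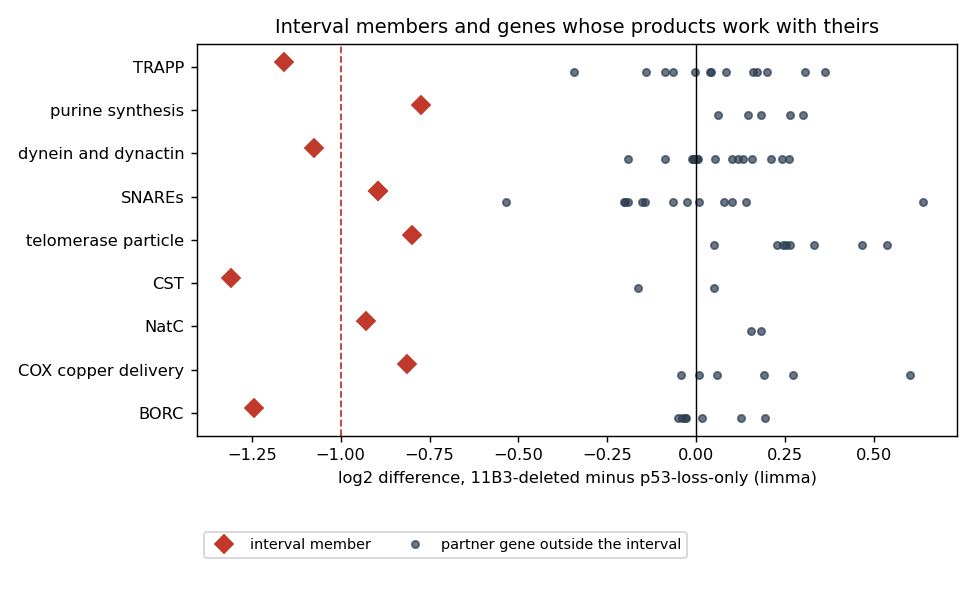
Log2 difference (horizontal axis, limma) of interval genes (red diamonds) and of the tested genes elsewhere whose products work with theirs (dark circles), by complex or pathway. The interval genes lie between -1.31 and -0.77, and the 72 others between -0.53 and 0.64.

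The other 11 tested genes from Sco1 to Trp53 had a median log2 difference of -0.82, with 8 of 11 intervals below 0 and 1 higher mean, and the 38 tested genes from Trp53 to Alox12 had -0.97, with 29 of 38. No test of the difference between these sets was made. The higher mean was that of Myh10, a nonmuscle myosin heavy chain, at 7281.3, 73.1, 1395.8 and 631.2 in 11B3-deleted cells, against 631.2, 1640.4, 43.8 and 63.8 in p53-loss-only cells. Its libraries were widely scattered in both groups and overlapped (log2 difference 1.84, SE 1.54, 95% interval -1.64 to 5.31). Beyond Sco1, 2310004I24Rik (current symbol Adprm), which starts head to head with Sco1, was at 281.2, 318.5, 475 and 398.6 in 11B3-deleted cells, against 751.6, 735.8, 882.6 and 706 in p53-loss-only cells. Its log2 difference of -1.09 (SE 0.22) had no overlap between the groups (DESeq2 adjusted p = 0.00182), and Tmem220 beyond it was at -1.33 (SE 0.44). The next 3 tested genes outward, Zkscan6, Map2k4 and Elac2, were at 0.02, 0.06 and 0.24 and overlapped.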

How the data were processed

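Total RNA of 8 leukaemia samples, 4 per genotype, was sequenced, and the tables of signal values that the authors deposited, 1 per library, were used. Tools named in the submitters' processing notes are STAR, HTSeq and DESeq, with build mm9; the sources used here give neither their roles nor their versions. Taking off an added 1, every deposited signal value was a whole multiple of 1 step per library (100% within 0.01), so reads were recovered by division; edgeR on those reads called 1 gene as lower. Groups came from the sample titles. The main test was limma (trended prior variance) on log2-transformed deposited values, whose scale contains the pseudocount of 1 and so understates the change of low genes, over genes at 10 or more in at least 4 libraries, two-sided, with Benjamini-Hochberg adjustment at 0.05 over 14679 genes. The 95% intervals are per gene and unadjusted, and were set against 0 and -1. edgeR's quasi-likelihood test and DESeq2 used the recovered reads with the deposited scaling; DESeq2 gave no adjusted p for Ntn1, Hes7, Tmem88 and Efnb3. No molecular identifiers are named.

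Members and lists were chosen with earlier results of these data known. Every member is named; values in each library follow a rule that takes the 12 tested members with the highest means and any whose interval leaves out -1, and of each partner list the 3 smallest p; Kcnab3, 2310004I24Rik, the single markers and the other neighbours were chosen after their values were seen. Gene order, overlaps and current symbols come from GENCODE M21 on GRCm38, another build than the files', so no gene coordinates are given. Windows are from RefSeq. Read counts of all library pairs differed beyond sampling noise (lowest chi-square over its degrees of freedom 94.4), so each library is 1 sample. The fit was tested on simulated data. Alternatives were a constant of 5, other filters, TMM scaling, edgeR, DESeq2, array weights, each library left out and the replicate number as a block. The software was DESeq2 1.42.0, edgeR 4.0.16 and limma 3.58.1 under R 4.3.3.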

Additional observations from a re-analysis of the deposited data

Results flagged for a closer look

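Of 46 groups of 4 libraries, 1 per tested gene and genotype, 3 held a library far from the others, and chance flags about 1 in 20 groups. Mfsd6l in 11B3-deleted replicate 2 was at 511.1 where the other 3 libraries lay between 52.7 and 69.8. Sco1 in p53-loss-only replicate 4 was at 833.8 where the others lay between 624.9 and 638.6. Hes7 in p53-loss-only replicate 1 was at 36 where the others lay between 10.2 and 14.2.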

How the results depend on the processing

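The median log2 difference over the tested genes lay between -1.06 (without 11B3-deleted replicate 3) and -0.79 (without 11B3-deleted replicate 2) when each library was left out, and the number with an interval below 0 between 13 and 16. DESeq2 called 6 genes after adjustment where limma, edgeR and every limma alternative called 0. Intervals left out -1 for 4 genes with array weights (Mfsd6l, 1500010J02Rik, Kcnab3 and Dnahc2, all lower than -1) and for 0 to 2 with a library left out (Kcnab3 and Dnahc2 without p53-loss-only replicate 4). Raising the filter to 50 left 17 genes, with a median of -1.01 and 13 intervals below 0. Replicate numbers did not pair the libraries (same-number correlations -0.03, -0.22, -0.41 and -0.24); with the replicate block 14 intervals lay below 0 and 0 genes passed after adjustment. With 1 library left out, the log2 difference spanned 0 for Gas7 (-1.22 to 0.15, above 0 without p53-loss-only replicate 1 or 3), Arhgef15 (-0.85 to 0.26), Ppat (-0.0076 to 0.65), Adsl (-0.053 to 0.45), Obfc1 (-0.34 to 0.030), 2310004N24Rik (-0.052 to 0.14), Bloc1s1 (-0.0069 to 0.36) and Snapin (-0.20 to 0.090), none of which passed a test; the cause was not tested. Low read counts limit Ntn1, Hes7, Tmem88, Efnb3 and the 5 genes under the filter.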
